A study of Mus musculus with 6 samples.

Results

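Casein kinase 2 (CK2) is a serine/threonine protein kinase that is active in most cell types without needing an upstream signal. The holoenzyme pairs catalytic subunits, alpha (gene Csnk2a1) or alpha prime (gene Csnk2a2), with a dimer of the regulatory subunit beta (gene Csnk2b), which sets substrate choice. CK2 phosphorylates a wide range of proteins, among them Dishevelled and beta-catenin of the WNT pathway, inhibitors and effectors of cell death, translation factors and chaperones, and in mice loss of Csnk2a1 or of Csnk2b is lethal to the embryo.

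The subunits were followed in Fkbp8 mutant and wildtype mouse embryos at E9.5 (embryonic day 9.5), on single-colour CodeLink whole genome arrays. The groups were 3 Fkbp8 mutant samples (a, b and c) and 3 wildtype samples (d, e and f), taken from litters of heterozygous parents. The tissue was the trunk behind the forelimb bud, a mixture of neural tube, mesoderm, ectoderm, vessels and blood. The allele and strain are not given in the sources used here, and whether mutant a came from 1 embryo or several is not settled by its source label, which uses the plural. Fkbp8 encodes an immunophilin-related protein anchored in the outer mitochondrial membrane, and the study dealt with its roles in apoptosis and in the patterning of the neural tube.

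The set was defined by gene symbol, from the platform annotation or the description printed in the array files. Of 34967 gene probes, which named 18546 genes, 2 matched, GE36389 for Csnk2a1 and GE35263 for Csnk2a2, and 0 matched Csnk2b. The regulatory subunit was therefore not analysed here. The set was chosen from the array values themselves, because Csnk2a1 was lower in the mutants, so the values of Csnk2a1 are given below as a description with no test. Csnk2a2 was brought in as the paralogue of Csnk2a1. Both probes were marked good by the scanner software, and so above background, on 6 of 6 arrays, and both passed the filter on dim probes.

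Both catalytic subunit genes have a promoter entry in the RefSeq table of GRCm38.p6, and the 120 bases before each listed start are shown to set the paralogue that was lower beside the one whose groups overlapped. Capitals mark the GC box GGGCGG and the ETS core CCGGAA, searched on both strands, where no matches of the motifs overlapped. In human, SP1 and ETS1, which bind such motifs, are known from studies of CK2 subunit promoters. The Csnk2a1 window lies at chr2:152226720-152226839 on the plus strand and the Csnk2a2 window at chr8:95488821-95488940 on the minus strand, each written 5′ to 3′ along its gene.
Csnk2a1: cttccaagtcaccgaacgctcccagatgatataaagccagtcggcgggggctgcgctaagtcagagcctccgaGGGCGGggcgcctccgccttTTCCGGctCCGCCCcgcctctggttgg
Csnk2a2: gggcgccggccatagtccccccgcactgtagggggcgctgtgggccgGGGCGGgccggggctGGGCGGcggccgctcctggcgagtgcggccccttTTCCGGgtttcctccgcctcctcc

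Each window held 2 GC boxes and 1 ETS core, so these letters did not separate the paralogues. GC content was 66.7% for Csnk2a1 and 79.2% for Csnk2a2, against a median of 54.2% over 32851 windows. Of all windows, 26.5% held a GC box, 8.07% an ETS core and 3.28% both. A match describes the letters only, and the annotated span of each gene in that assembly reaches into its window, so other starts are listed nearby.

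Csnk2a1, the gene of the alpha subunit, was lower on each of the 3 mutant arrays than on any wildtype array. Its deposited normalized intensity, a linear value scaled so that the median probe of an array is close to 1, was 3.42, 3.43 and 3.56 in mutants a, b and c, against 5.46, 5.54 and 5.43 in wildtypes d, e and f. The groups did not overlap, and each group was tight: the means were 3.47 ± 0.0799 in mutants and 5.48 ± 0.0558 in wildtypes (SD, n = 3 each). On this scale the mutant mean was 36.7% below that of wildtypes, and the 9 mutant to wildtype ratios lay between 0.618 and 0.656.

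After background correction by normexp and quantile normalization, the log2 intensity of Csnk2a1 was 8.03, 8.07 and 8.15 in mutants a, b and c, against 8.62, 8.64 and 8.62 in wildtypes d, e and f. The gap between the highest mutant and the lowest wildtype was 0.47 on the log2 scale, while the mutants spanned 0.11 and the wildtypes 0.02. The fitted difference was -0.54 (SE 0.07), a level in mutants 0.687 times that in wildtypes. Of 21688 probes tested, 201 (0.927%) had a more negative fitted difference. Groups that do not overlap were common on these arrays, at 19.7% of tested probes in either direction. Csnk2a1 was picked because it was lower in mutants, so nothing is read from its rank or from its groups standing apart.

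**Figure D1:**
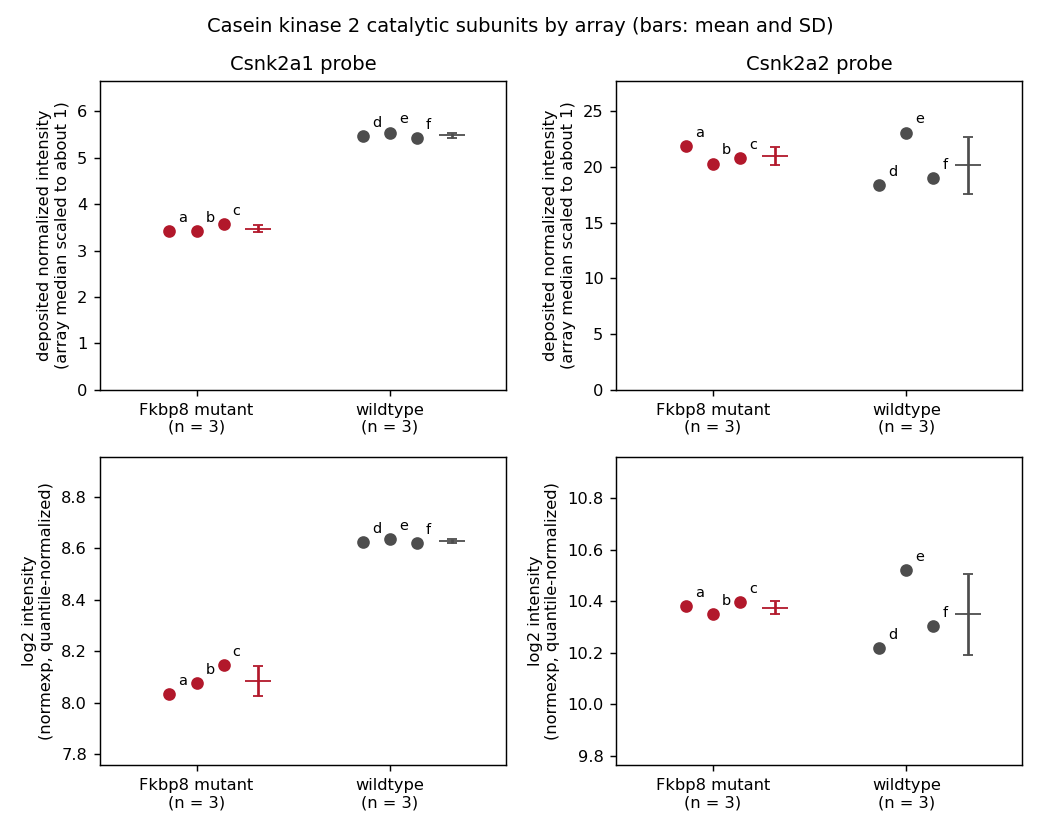
Values of the Csnk2a1 probe (left) and the Csnk2a2 probe (right) on each array, as deposited normalized intensity (upper row, axis from 0) and as log2 intensity (lower row, axes of equal span that do not start at 0). Letters name the arrays and bars give mean and SD (n = 3 each). Csnk2a1 sits between 3.42 and 3.56 on the mutant arrays and between 5.43 and 5.54 on the wildtype arrays, while the Csnk2a2 groups overlap.

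The spots behind these values were examined next. At the Csnk2a1 spot the mean intensity was 252, 272 and 235 in mutants a, b and c, against 402, 398 and 397 in wildtypes d, e and f. The median of the local background was 44, 49 and 49 in those mutants, against 51, 49 and 47 in those wildtypes, so the groups differed at the spot and overlapped in the background around it. The spot covered 68 to 71 pixels in mutants and 77 to 81 in wildtypes. The spots numbered next to it were dim: spot 17251 read 40.5 to 61.7 above background in mutants and 62.3 to 66.4 in wildtypes, and spot 17253 read 6.28 to 11.0 in mutants and 13.4 to 28.9 in wildtypes. Both of these neighbouring spots were thus also lower on all mutant arrays before any scaling between arrays, and their part in the result was not tested.

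Csnk2a2, the gene of the alpha prime subunit, had overlapping groups. Its deposited normalized intensity was 21.9, 20.3 and 20.8 in mutants a, b and c, against 18.3, 23.1 and 19.0 in wildtypes d, e and f. Wildtype d was the lowest and wildtype e the highest of the 6 arrays, with the mutants between them, and 3 of 9 mutant to wildtype pairs had the lower value in the mutant. The means were 21.0 ± 0.799 in mutants and 20.2 ± 2.56 in wildtypes (SD, n = 3 each).

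In log2 intensity Csnk2a2 read 10.38, 10.35 and 10.40 in mutants a, b and c, against 10.22, 10.52 and 10.30 in wildtypes d, e and f. The fitted difference was 0.03 (SE 0.09), which did not pass in limma (adjusted p = 0.929 over all probes tested). Its 95% interval ran from -0.18 to 0.24, or 0.881-fold to 1.18-fold. A p that misses the threshold does not show that Csnk2a2 was unaffected, and the difference between the paralogues was not tested because Csnk2a1 was picked for its value. Leaving out wildtype d turned the sign of the Csnk2a2 difference, to -0.04 (SE 0.10, limma adjusted p = 0.917).

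**Figure D2:**
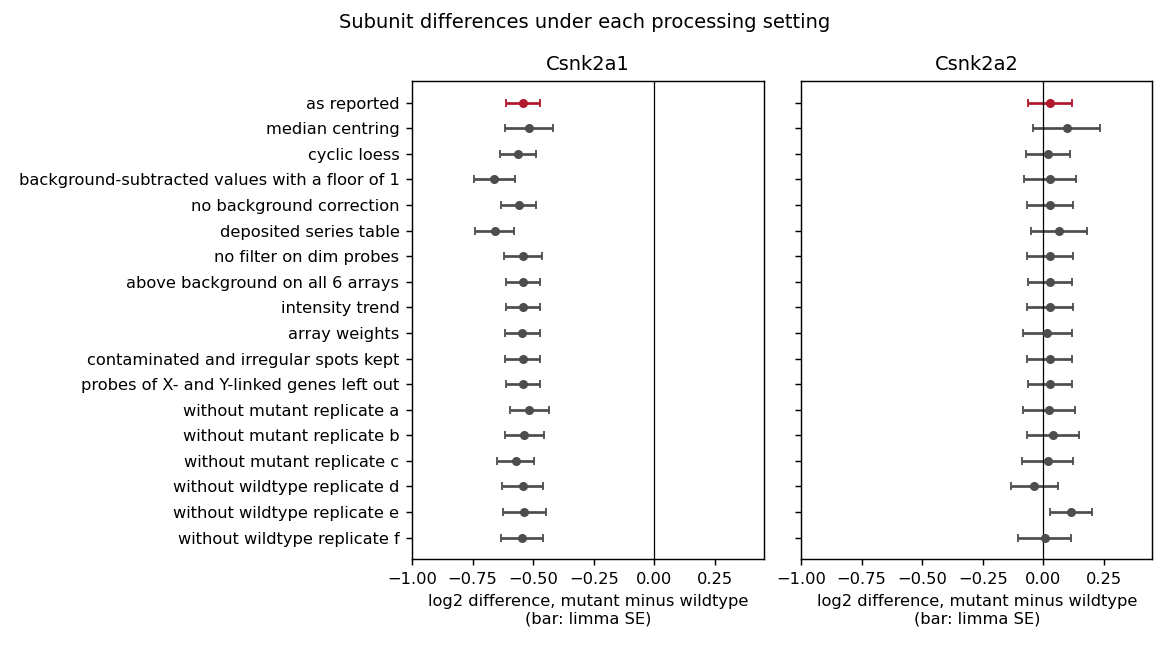
Log2 difference, mutant minus wildtype, of Csnk2a1 (left) and Csnk2a2 (right) as reported (red) and under 17 other settings (grey), each with its limma SE. Csnk2a1 lies between -0.66 and -0.52 in the other settings and Csnk2a2 between -0.04 and 0.11.

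The RefSeq gene table lists 3 pseudogenes of like name, Csnk2a3 on chromosome 1, Csnk2a1-ps1 on chromosome 14 and Csnk2a1-ps on chromosome X, besides Csnk2a1 itself on chromosome 2. The probe sequence was not used here, so signal from such copies cannot be told apart from that of Csnk2a1. In tissue of mixed cells, fewer cells that make Csnk2a1 and less Csnk2a1 RNA per cell also cannot be told apart.

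The mutated gene itself was read as a check of the labels. The Fkbp8 log2 intensity was 6.28, 6.30 and 6.11 in mutants a, b and c, where the probe was above background on 0 of 3 arrays, against 10.57, 10.74 and 10.67 in wildtypes d, e and f. The gene was at least 18.8-fold lower in mutants (limma adjusted p = 1.18e-07). The bound sets the wildtype mean against the mean over mutant arrays of the lowest signal above background or the probe's own, whichever is higher.

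The groups also differed in sex-linked expression. All 3 mutant arrays and 0 of 3 wildtype arrays had signal above background for Eif2s3y, Ddx3y and Uty, genes of the Y chromosome. In mutants Eif2s3y was at least 8.97-fold higher (limma adjusted p = 1.61e-07), Ddx3y at least 2.49-fold (adjusted p = 0.00646) and Uty at least 1.81-fold (adjusted p = 0.000709). Xist, made from the inactive X of females, was at least 3.25-fold lower in mutants and above background on 0 of 3 of their arrays (adjusted p = 0.000107). Genotype and sex-linked expression cannot be told apart for Csnk2a1 or any other gene here.

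Between 20144 (57.6%, mutant c) and 21612 (61.8%, wildtype f) gene probes per array were above background. The neural tube markers (6 of 6 genes) and those of presomitic mesoderm and somite (5 of 5) were above background on all arrays, and of the lateral plate markers Hand2 was above it on none. Summed deposited intensities of blood markers were 1650 to 1840 in mutants and 1320 to 1650 in wildtypes (6 of 7 genes on the array, 5 flagged above background on all arrays). The other, Hbb-y, was so flagged on 2 of 3 mutant and 3 of 3 wildtype arrays. It was bright all the same, at 424 to 517 in mutants and 256 to 383 in wildtypes. Sums were 29.6 to 32.7 in mutants and 24.6 to 29.2 in wildtypes for endothelial markers (4 of 4 genes, 3 above background on all arrays). For neural tube markers they were 60.8 to 64.9 in mutants and 56.1 to 61.1 in wildtypes, but the mean log2 difference of the same 6 genes was -0.33, of opposite sign. Single log2 differences were -1.26 for Dbx1, -1.15 for Pax6, -0.50 for Sox2, -0.15 for Pax3, -0.05 for Sox1 and 1.14 for Nkx6-1, so the neural tube list did not move one way. For mesoderm markers the sums were 68.6 to 77.5 in mutants and 65.5 to 73.2 in wildtypes. For endothelial markers the ranges of the sums did not overlap, with the mutants higher, and for blood markers they met at 1650 as rounded. The ranges of the sums overlapped between the groups for neural tube and for mesoderm markers. For lateral plate markers the ranges overlapped too (8.34 to 10.7 in mutants, 9.54 to 10.6 in wildtypes). So did those for surface ectoderm, with 2 of 4 genes on the array (28.0 to 34.1 in mutants, 30.7 to 31.6 in wildtypes). Of markers of the heart, which was not dissected, Tnnt2 and Myh6 were above background on 0 of 6 arrays, while Myl7 was above it on all. Heart sums were 6.67 to 7.76 in mutants and 6.33 to 6.55 in wildtypes (3 of 4 genes on the array, 1 above background on all arrays), so their ranges did not overlap. Most of each sum was Myl7, at 6.19 to 7.15 in mutants and 5.9 to 6.22 in wildtypes, with overlapping groups. Of the 3 markers listed for the forebrain, which was not dissected either, Emx2 and Six3 were above background on all 6 arrays. The other marker is not reported here, and the tissue that gave the Emx2 and Six3 signal was not tested. Deposited intensity was 32.3 to 35.8 in mutants and 24.9 to 32.2 in wildtypes for Six3, and 2.28 to 3.58 in mutants and 2.49 to 3.05 in wildtypes for Emx2. The part of these marker differences in the Csnk2a1 values was not tested.

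The casein kinase 1 family, which shares the name but belongs to a separate branch of the kinases, showed no member past the threshold. All 6 genes were measured, and 0 passed an adjusted p of 0.05 in limma (1 at an unadjusted p under 0.05). Over all probes tested 0.12% passed (26 of 21688), and 12.2% had an unadjusted p under 0.05. Their median log2 difference was -0.07, beside 0.01 for all probes tested, with 4 below 0 and 2 above.

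Csnk1d, a kinase of the circadian clock and of WNT signalling, had the smallest p. Its log2 intensity was 9.33, 9.09 and 8.96 in mutants a, b and c, against 9.40, 9.33 and 9.51 in wildtypes d, e and f. The mutants were lower on average (log2 difference -0.29, SE 0.11, limma adjusted p = 0.344), but mutant a equalled wildtype e to 2 decimals. The paralogues gave -0.18 (SE 0.11) for Csnk1g2, -0.11 (SE 0.08) for Csnk1g1, -0.03 for Csnk1g3, 0.08 for Csnk1a1, which primes beta-catenin for destruction, and 0.10 (SE 0.09) for Csnk1e. The groups overlapped for all 6 genes. For Csnk1d they did so by that pair alone, and for Csnk1g1 by mutant a (8.1705) and wildtype d (8.1684) alone.

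CK2 is placed among the CMGC kinases, with the cyclin-dependent kinases, MAP kinases, GSK3, DYRK, HIPK, CLK and SRPK families. Of 16 genes listed from the GSK3, DYRK, HIPK, CLK and SRPK families, 14 were tested and 0 passed in limma (3 before adjustment, at p under 0.05), with a median log2 difference of 0.01. Among all probes tested, 0.12% passed and 12.2% had an unadjusted p under 0.05, so 0 of 14 does not set this list apart. The groups did not overlap for 4 of the 14 (28.6%), against 19.7% of all probes tested.

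The 3 with the smallest p differed in direction. Dyrk3, a kinase that dissolves membraneless condensates during mitosis, read 8.01, 7.77 and 8.07 in mutants a, b and c, against 8.52, 8.36 and 8.35 in wildtypes d, e and f (log2 difference -0.46, SE 0.10, limma adjusted p = 0.186). Dyrk1a, a dosage-sensitive kinase of brain growth, read 8.72, 8.96 and 8.92 in mutants a, b and c, against 8.50, 8.49 and 8.50 in wildtypes d, e and f (0.37, SE 0.08, adjusted p = 0.215). Hipk1, a nuclear kinase that acts on homeodomain proteins and p53, read 10.17, 10.72 and 10.45 in mutants a, b and c, against 10.02, 9.87 and 9.89 in wildtypes d, e and f (0.52, SE 0.13, adjusted p = 0.239). None of these passed, although in each of them the mutants and wildtypes stood apart. Their other tested probes gave 0.03 for Dyrk3, of unlike sign, and 0.33 for Hipk1, of like sign. Clk4, a splicing kinase, had a difference of 0.24 (SE 0.11, adjusted p = 0.421), with overlapping groups.

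**Figure D3:**
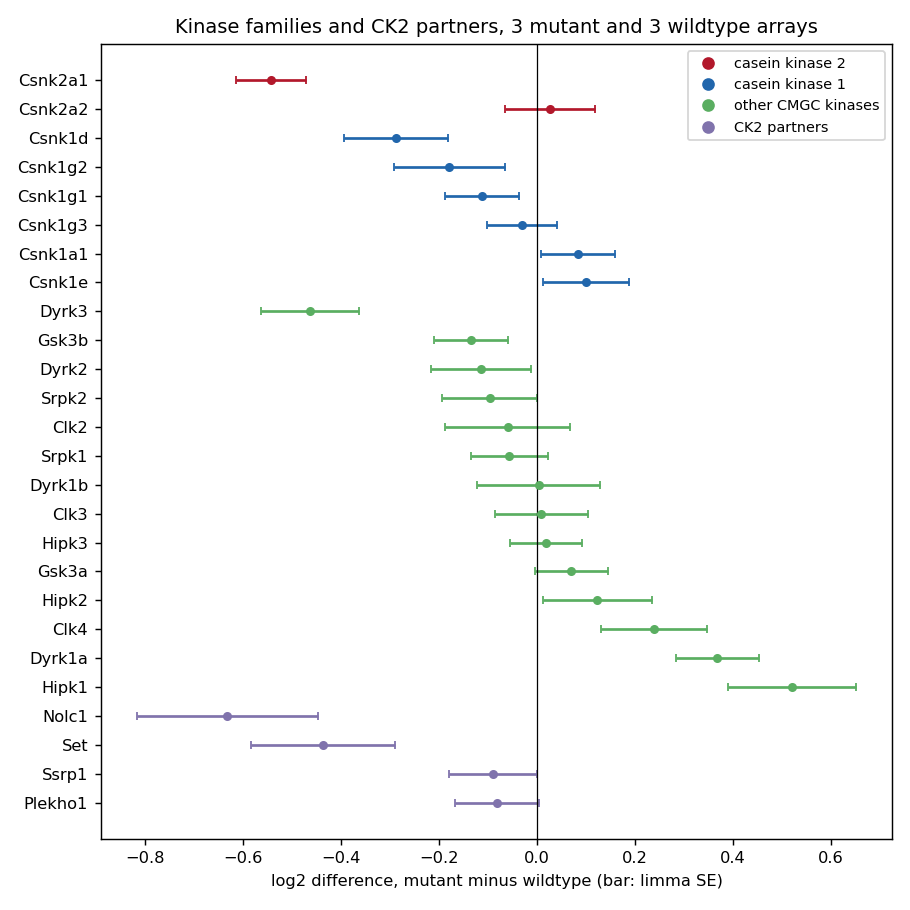
Log2 difference, mutant minus wildtype, of the 2 CK2 subunit genes, the casein kinase 1 genes, other CMGC kinases and CK2 partners, each as a point with its limma SE (3 arrays per group, brightest tested probe per gene). Csnk2a1, picked because it was lower, lies at -0.54 and Csnk2a2 at 0.03, and the casein kinase 1 genes lie between -0.29 and 0.10.

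Proteins that bind CK2 were examined as a separate list. Of 10 genes listed, 5 had a probe and 4 were tested, so the list is thinly measured. In limma 0 of the 4 passed (2 had an unadjusted p under 0.05), all 4 differences were negative, and their median was -0.26. Over all probes tested, 12.2% had such a p, 47.6% had a negative difference and the median was 0.01. Nolc1, a nucleolar phosphoprotein that is heavily phosphorylated by CK2, read 10.29, 9.79 and 10.59 in mutants a, b and c, against 10.99, 10.89 and 10.68 in wildtypes d, e and f. The groups did not overlap, mutant b was the lowest, and the difference was -0.63 (SE 0.18, adjusted p = 0.274). Set, a histone chaperone and inhibitor of protein phosphatase 2A, read 10.95, 10.45 and 10.39 in mutants a, b and c, against 10.91, 11.11 and 11.09 in wildtypes d, e and f. Mutant a lay above wildtype d, and the difference was -0.44 (SE 0.15, adjusted p = 0.314). Ssrp1, a subunit of the FACT chromatin complex, gave -0.09 (SE 0.09), and Plekho1, which recruits CK2 to the plasma membrane, gave -0.08 (SE 0.09).

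Among genes whose proteins are known CK2 substrates, 29 of 32 had a probe and 27 were tested. Of these, 0 passed in limma (2 before adjustment, at p under 0.05), 12 differences were below 0 and 15 above, and the median was 0.04. The shares among all probes tested were 0.12% passing, 12.2% at such an unadjusted p and 47.6% below 0. Hdac2, a histone deacetylase, read 10.68, 10.43 and 10.62 in mutants a, b and c, against 10.76, 10.85 and 11.08 in wildtypes d, e and f (log2 difference -0.31, SE 0.11, limma adjusted p = 0.315). Top2a, the topoisomerase of dividing cells, read 11.19, 11.31 and 11.17 in mutants a, b and c, against 10.89, 11.05 and 11.04 in wildtypes d, e and f (0.23, SE 0.08, adjusted p = 0.333). Lef1, a transcription factor of WNT signalling, gave 0.17 (SE 0.08) and Hdac3 gave 0.16 (SE 0.08). A dimmer Lef1 probe gave 0.03 (SE 0.10), with overlapping groups. The groups did not overlap for 5 of the 27 (18.5%), close to the 19.7% over all probes. For the WNT transducers Dvl1 and Ctnnb1 the differences were 0.07 (SE 0.11) and -0.24 (SE 0.13), and for Fkbp4, a relative of Fkbp8, the difference was -0.10 (SE 0.09).

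The subunit genes lie on separate chromosomes, and their neighbours in the gene order of GRCm38.p6 were compared with them. Of the 10 tested genes nearest to Csnk2a1 on chromosome 2, 5 on each side and each by its brightest tested probe, 0 passed in limma (0 before adjustment, at p under 0.05). By these probes their differences ran from -0.11 to 0.17 with a median of 0.01, and that of Csnk2a1 was -0.54. Of all probes tested 0.12% passed, 12.2% had an unadjusted p under 0.05 and 0.927% had a more negative difference than Csnk2a1. Csnk2a1 was picked because it was lower, so its place outside the range of its neighbours follows in large part from that choice. The contrast does not show a change limited to Csnk2a1. Among the brightest tested probes of the neighbours, that of Tbc1d20, next to Csnk2a1, had the smallest p (0.17, SE 0.08, adjusted p = 0.421). It read 10.65, 10.60 and 10.63 in mutants a, b and c, against 10.48, 10.37 and 10.53 in wildtypes d, e and f. A dimmer probe of Trib3, a pseudokinase induced by cell stress, had a larger difference of 0.51 (SE 0.11, limma adjusted p = 0.179). It read 8.14, 8.38 and 8.03 in mutants a, b and c, against 7.58, 7.80 and 7.62 in wildtypes d, e and f, so its groups did not overlap, while the brighter Trib3 probe gave 0.11 (SE 0.07). The mesoderm factor Tcf15, next to Csnk2a1 on the other side, had a difference of -0.02 (SE 0.08).

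Csnk2a2 lies on chromosome 8, as does Fkbp8, with 192 other tested genes between them. Of its 10 nearest tested genes 0 passed in limma (2 before adjustment, at p under 0.05), with differences from -0.26 for Ndrg4 (SE 0.09, adjusted p = 0.312) to 0.20 for Prss54 (SE 0.08, adjusted p = 0.365). The groups did not overlap for 5 of the 10, against 19.7% of all probes, and the linkage to Fkbp8 cannot be told apart from genotype for any of them. Around Csnk2b on chromosome 17, 0 of 10 passed (1 at an unadjusted p under 0.05), with differences from -0.25 for Gpank1 (SE 0.09, adjusted p = 0.34) to 0.16 for Ly6g6e. Beside these counts, 0.12% of all probes tested passed and 12.2% had an unadjusted p under 0.05.

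**Figure D4:**
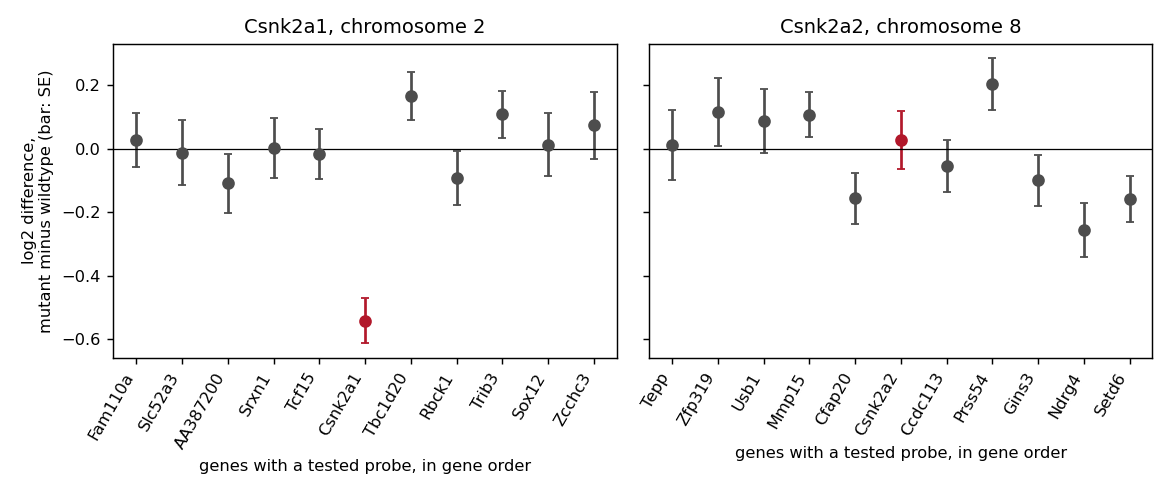
Log2 difference, mutant minus wildtype, with its limma SE, for Csnk2a1 and Csnk2a2 (red) and the 5 nearest genes with a tested probe on each side (grey), in gene order and not to scale. Only the brightest tested probe of a gene is drawn. By it the neighbours of Csnk2a1 lie between -0.11 and 0.17 and Csnk2a1, picked because it was lower, lies at -0.54, and a dimmer probe of Trib3, at 0.51, is not drawn.

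The probes most like each subunit were sought by Pearson correlation of log2 intensity over the 6 arrays, among 14631 other named probes. With Csnk2a1 the highest were Slc39a9, a zinc transporter (r = 0.998), Fcrl1 (0.998) and Dhx38, a splicing helicase (0.990), and 71 probes exceeded 0.95. Their own log2 differences were smaller in size, at -0.28, -0.26 and -0.16. The Csnk2a1 groups stood apart by 0.47, while the mutants spanned 0.11 and the wildtypes 0.02. Its r over the 6 arrays therefore largely ranks probes by how cleanly they split mutants from wildtypes, the contrast by which Csnk2a1 was picked. With the group means taken off, different genes led, Mrpl21, Smarcb1 and Srsf1, at 0.9997, 0.998 and 0.997. With Csnk2a2 the highest were Cep112 (0.984), Sh2d5 (0.978) and Tecta (0.976), and with the group means taken off Ccs (0.999), Fbl (0.998) and Tecta (0.996). With 6 arrays, which share 1 normalization, many probes reach such values, and these are descriptions only.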

How the data were processed

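The authors deposited, per the file headers, tables from CodeLink Expression Analysis 4.1.0.29054 with the intensity of each spot (mean, local background median) and a normalized intensity, equal to the deposited series table (largest difference 0). Of 34967 gene probes 22258 had 1 symbol, 204 several and 12505 none, named from the platform annotation, RefSeq accessions and array descriptions, and updated with the GRCm38.p6 gene table.

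Spot means were corrected with normexp (offset 50). Spots with a flag for contamination, irregular shape or masking (339 to 508 on an array) were treated as missing before quantile normalization of the log2 values. Probes flagged good or saturated on at least 3 of 6 arrays, and usable on at least 2 arrays of each group, were compared with limma 3.58.1 (R 4.3.3), two-sided, with Benjamini-Hochberg adjustment over 21688 probes and a threshold of 0.05. The script was checked on simulated data. Errors are SD over 3 arrays or limma SE, and the small number of arrays limits precision. The labels pair no samples, though a leading number in the array headers is shared by mutant a and wildtype d, with no statement of what it marks. The p-values cover only the spread among these 6 samples.

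Members and lists were chosen with earlier results of these data known. Lists were CK2 partners, CK2 substrates, casein kinase 1, other CMGC kinases and gene neighbours, with the brightest tested probe per gene. Named were all subunit probes, Fkbp8, 4 sex-linked genes, list members past the threshold and up to 4 with the smallest p, and the 3 most correlated probes per subunit. Others (Csnk1g3, Csnk1a1, Dvl1, Ctnnb1, Fkbp4, Tcf15 and the dimmer probes of Trib3 and Lef1) were named after their values were seen. The other tested probes of Dyrk3 and Hipk1 were also given outside that naming rule. Lists of cell-type markers were used too, with no p-value given.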

Additional observations from a re-analysis of the deposited data

How the results depend on the processing

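Over 17 alternatives the Csnk2a1 difference was below 0 in each, from -0.66 to -0.52. Leaving out 1 array could not turn its sign, because the mutant was lower in all 9 mutant to wildtype pairs. Changing the probe filter, adding an intensity trend or dropping X- and Y-linked genes left the difference at -0.542. The sign in those settings is thus no added evidence. The Csnk2a1 difference moved by more than the spread between arrays to -0.6606 with background-subtracted values floored at 1 and to -0.6592 with the deposited series table, and the cause was not tested. The Csnk2a2 difference ran from -0.04 to 0.11 (limma adjusted p 0.702 to 0.996). It turned negative without wildtype d (-0.0382) and was 0.1139 without wildtype e. The Fkbp8 difference kept its sign and call in the 16 alternatives in which it was tested (it cannot be tested with the filter on all 6 arrays). The count of 26 probes past the threshold was 16 with median centring, 13 with floored values and 15 with the deposited table. It was 16 with the filter on all 6 arrays and 14 without X- and Y-linked genes. That filter drops Fkbp8, Xist, Eif2s3y, Ddx3y and Uty, all past the threshold and each above background on 0 of 3 arrays in 1 group. Leaving out X- and Y-linked genes drops the same sex-linked genes by design. The cause of the other shifts in the count was not tested. Leaving out 1 array gave 11 to 39, with 39 and 12 on dropping mutants a and b, and 11, 15 and 11 on dropping wildtypes d, e and f. In no alternative did a member of the 7 lists pass. With 0.12% of all probes tested passing in the main fit, lists this short would seldom hold one, so this does not set them apart. The plot of settings shows both subunits. The change of Csnk2b could not be computed under any setting, for want of a matching probe.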
